A study of Mus musculus with 6 samples.

Results

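The calcium-binding protein genes described here are 10 genes taken by name from the deposited read counts: Calb1, Calb2, Pvalb, Necab1, Necab2, Necab3, Hpcal1, Hpcal4, Ncald and Vsnl1. All 10 were present among 32531 named genes, and all 10 passed the filter on low counts that left 16898 genes for testing. The data came from the thalamus of adult, untreated mice that all carried the Cbln1-EGFP/Rpl10a transgene (line NIDA030), which places a fluorescently tagged ribosomal protein in cells under Cbln1 control. RNA recovered with the tagged ribosomes (IP, 3 libraries) was compared with the starting material (Input, 3 libraries), and ribosome-bound RNA is the labelled molecule in IP and Input alike. Deposited names point to the parafascicular nucleus while the labels say thalamus, so the extent of the dissection is uncertain. The labels do not tie replicates to separate animals or pools, so a p-value here reflects the spread among 6 libraries, which may be technical.

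These proteins bind calcium through EF-hands, helix-loop-helix folds whose loop holds the ion. Calbindin (Calb1), calretinin (Calb2) and parvalbumin (Pvalb) act mainly as mobile buffers that shape calcium transients, and anatomists use them to draw subdivisions of the thalamus: calbindin and calretinin in midline and intralaminar cell groups, and parvalbumin, in rodents, above all in the inhibitory neurons of the reticular nucleus. The NECAB proteins are neuronal EF-hand proteins that bind receptors and adaptors. Hpcal1, Hpcal4, Ncald and Vsnl1 belong to the neuronal calcium sensors, which carry a fatty acid at the amino terminus and move to membranes when calcium rises.

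The first EF-hand loop found in each coding sequence is shown because this feature places the 10 genes together. Capitals mark the first and last codons of the loop, which encode acidic residues that hold calcium. The stretches are 36 bases of the GENCODE M21 reference transcripts (mm10), 5′ to 3′ on the coding strand.
Calb1: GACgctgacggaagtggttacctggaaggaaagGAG
Calb2: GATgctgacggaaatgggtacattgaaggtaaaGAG
Pvalb: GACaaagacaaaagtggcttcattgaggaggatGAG
Necab1: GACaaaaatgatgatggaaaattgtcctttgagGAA
Necab2: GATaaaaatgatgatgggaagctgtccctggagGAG
Necab3: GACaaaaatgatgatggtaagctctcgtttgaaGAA
Hpcal1: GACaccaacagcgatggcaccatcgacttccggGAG
Hpcal4: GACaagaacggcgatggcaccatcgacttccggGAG
Ncald: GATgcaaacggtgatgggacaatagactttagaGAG
Vsnl1: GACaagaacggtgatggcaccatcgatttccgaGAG

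The PROSITE EF-hand pattern matched 4 loops in the Calb1 product, 5 in that of Calb2, 2 each in those of Pvalb and Necab2, and 1 each in those of Necab1 and Necab3. It matched 3 loops in each of the 4 sensors. In these 4 genes the first loop began at the same codon, number 73. Their first 60 coding bases are shown because the second codon, in capitals with the start codon, encodes the glycine that receives the fatty acid.
Hpcal1: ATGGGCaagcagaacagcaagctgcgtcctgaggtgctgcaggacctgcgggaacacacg
Hpcal4: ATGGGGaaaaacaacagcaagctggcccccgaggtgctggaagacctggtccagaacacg
Ncald: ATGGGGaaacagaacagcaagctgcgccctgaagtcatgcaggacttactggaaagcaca
Vsnl1: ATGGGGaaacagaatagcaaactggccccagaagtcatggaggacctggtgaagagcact

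Coding sequences of Hpcal4 and Vsnl1 were 82.1% identical and those of Hpcal1 and Ncald 80.2%, while the pair Calb1 and Calb2 reached 62.7%. The longest identical run between any pair of the 4 sensors was 32 bases, between Hpcal1 and Hpcal4. Transcripts of Calb1, Calb2, Pvalb, Necab2, Hpcal4 and Vsnl1 shared no stretch of 50 bases with annotated transcripts of any other gene. Such stretches were found for Necab1 (6.96% of its 50-base stretches, with the antisense gene Gm11837), Hpcal1 (6.5%, over 26 other genes), Ncald (4.89%, over 2 genes) and Necab3 (0.872%, with 1700003F12Rik). The strand setting of the authors' counting is unknown, and reads of Necab1 and Gm11837 could not be told apart over the 410 exonic bases they share.

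Library depth ran from 23929070 assigned counts (Input replicate 1) to 57385828 (IP replicate 1). Levels below are CPM, that is, counts relative to library size after scaling by the trimmed mean of M-values (TMM). Cbln1 itself stood at 1429 ± 67.8 CPM in IP libraries, against 79.8 ± 9.64 CPM in Input libraries (mean ± SD of 3). Rpl10a stood low in both groups, at 5.12 ± 0.968 CPM in IP and 4.88 ± 0.178 CPM in Input. It did not pass the test (log2 fold change 0.07, SE 0.28). The glutamatergic thalamic marker Slc17a6, a vesicular glutamate transporter, had 412 ± 85.4 CPM in IP and 198 ± 2.85 CPM in Input. The 14 glutamatergic thalamic markers tested were split, with 6 higher, 4 lower and 4 not called in IP. Their median log2 fold change was 0.15. Of 20 pan-neuronal genes 16 were higher and 2 lower in IP, with a median log2 fold change of 0.80, led in level by the vesicle fusion genes Snap25 and Vamp2. All 12 astrocyte and all 12 oligodendrocyte markers tested were lower, and their summed levels were 863 to 943 CPM in IP against 2586 to 2671 CPM in Input, and 359 to 449.8 CPM in IP against 3885 to 4497 CPM in Input. Summed levels of choroid plexus and ependymal markers differed between replicates of a group. They were 5.78, 49.6 and 44.6 CPM in IP replicates 1 to 3 and 33.8, 533 and 596 CPM in Input replicates 1 to 3. Most of the sum in replicates 2 and 3 was Ttr, with 0, 40.6 and 35.1 CPM in IP and 2.78, 477 and 542 CPM in Input. Not every marker varied so: Foxj1 had 3.76, 2.53 and 4.66 CPM in IP and 14.8, 14.2 and 16.3 CPM in Input.

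The 10 calcium-binding protein genes moved in both directions. Calb1, Vsnl1, Ncald and Hpcal4 were higher in IP, Necab1, Hpcal1 and Calb2 were lower, and Pvalb, Necab2 and Necab3 did not pass the test, though Hpcal4, Ncald and Necab3 turned negative when libraries were scaled to pan-neuronal genes. The test was edgeR's quasi-likelihood test across all genes, with a Benjamini-Hochberg adjusted p-value below 0.05 as threshold. Among all genes tested, 23.3% were called higher and 24.3% lower, beside 4 and 3 of the 10 here, and 47.5% were called in either direction, beside 7 of the 10. The median log2 fold change was 0.02 over the 10 and -0.07 over all genes. The IP range lay clear of the Input range for 7 of the 10, a state reached by 61.6% of all genes tested. In bulk libraries such as these, a smaller share of RNA from a cell type and less RNA of a gene per cell cannot be told apart.

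**Figure D1:**
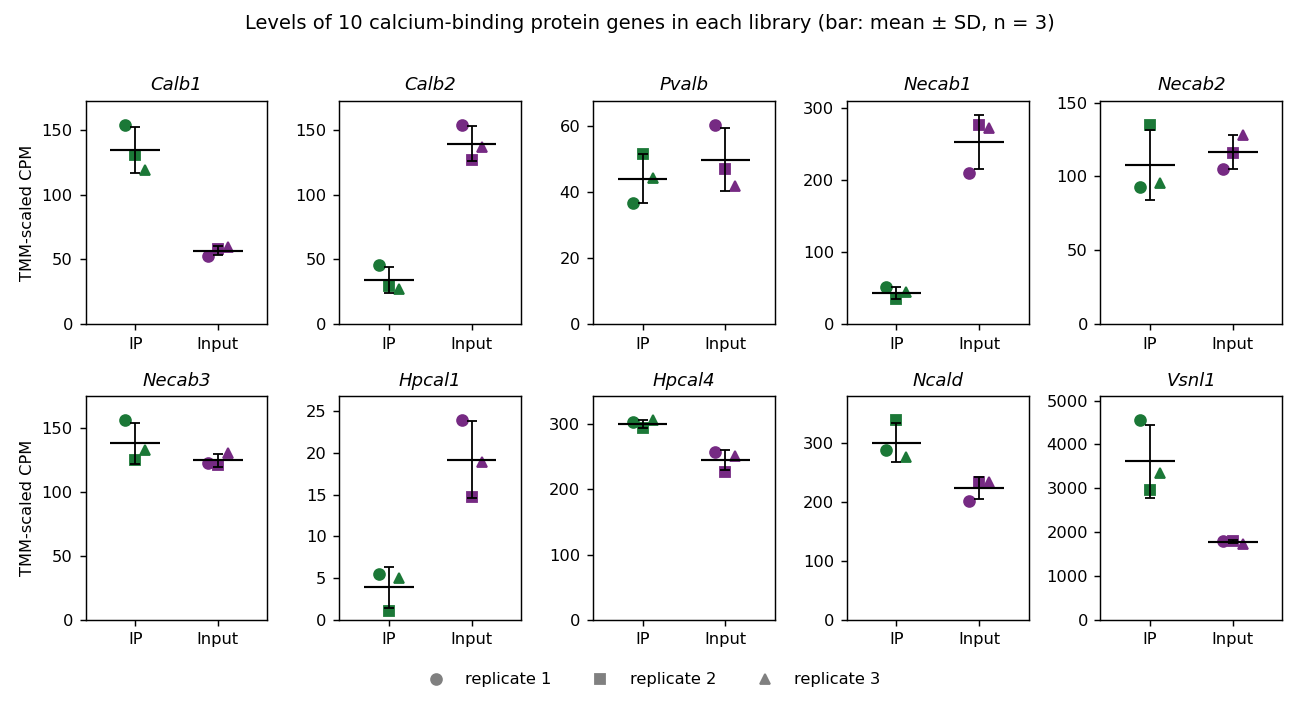
TMM-scaled CPM (vertical axes, from 0) of the 10 genes in the 3 IP libraries (left in each panel) and the 3 Input libraries (right), with the mean ± SD as bars and the replicate number as symbol. Calb1, Hpcal4, Ncald and Vsnl1 sit higher in IP, Calb2, Necab1 and Hpcal1 lower, and the groups overlap for Pvalb, Necab2 and Necab3.

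Calb1 (chromosome 4, 15881264 to 15908064, plus strand, mm10) encodes calbindin, the buffer that marks midline and intralaminar thalamic groups. It had 154, 131 and 119 CPM in IP replicates 1 to 3, against 52.7, 57.7 and 59.7 CPM in Input replicates 1 to 3. Each IP library stood above every Input library. The log2 fold change was 1.25 (SE 0.12, edgeR adjusted p = 3.96e-05), and the log2 ratios within replicate numbers were 1.54, 1.19 and 0.99. This change was larger than or equal to that of 95.7% of the genes tested.

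Calb2 (chromosome 8, 110137502 to 110168210, minus strand), the gene of the closely related buffer calretinin, went the other way. It had 45.8, 29.6 and 26.8 CPM in IP replicates 1 to 3, against 154, 127 and 137 CPM in Input replicates 1 to 3. The highest IP library lay well below the lowest Input library, and IP replicate 1 was the highest of its group for both Calb1 and Calb2. The level in IP was 4.09-fold lower (log2 fold change -2.03, SE 0.19, edgeR adjusted p = 4.46e-05), with log2 ratios of -1.75, -2.11 and -2.35 within replicate numbers.

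Pvalb (chromosome 15, 78191114 to 78206400, minus strand), the parvalbumin gene, had 36.6, 51.3 and 44.1 CPM in IP replicates 1 to 3 and 60.3, 46.9 and 41.9 CPM in Input replicates 1 to 3. The groups overlapped, and the replicate numbers disagreed in direction, with log2 ratios of -0.72, 0.13 and 0.07. The log2 fold change of -0.17 had a 95% interval of -0.56 to 0.21 (edgeR adjusted p = 0.428). Inhibitory and reticular nucleus markers stood lower in IP: 11 of the 16 tested were called lower and 1 higher, and their summed level was 116 to 128 CPM in IP against 711 to 958 CPM in Input. The most abundant of them, the GABA-synthesising enzyme gene Gad2, averaged 56.7 ± 6.44 CPM in IP libraries, against 491 ± 92.5 CPM in Input libraries (mean ± SD of 3). None of the 17 markers listed was at 0 in all IP libraries. Of the Input libraries replicate 1 was highest for both Pvalb and this sum. Of the IP libraries replicate 1 was highest for the sum (128 CPM, against 119 and 116 CPM) but lowest for Pvalb. The part of these cells in the Pvalb values was not tested.

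Ratios of raw counts within a library do not depend on how libraries are scaled. Calb1 counts were 3.35, 4.44 and 4.42 times Calb2 counts in IP replicates 1 to 3, against 0.341, 0.453 and 0.436 times in Input replicates 1 to 3. The order of these genes' counts was thus opposite in the IP and the Input libraries. The mean log2 ratio differed by 3.31 between the groups (exact two-sided permutation p = 0.1, the smallest that 3 against 3 libraries allow). Calb1 counts were 4.2, 2.56 and 2.69 times Pvalb counts in IP and 0.874, 1.23 and 1.42 times in Input. The summed level of Calb1, Calb2 and Pvalb ranged from 189 to 236 CPM in IP and from 232 to 267 CPM in Input.

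**Figure D2:**
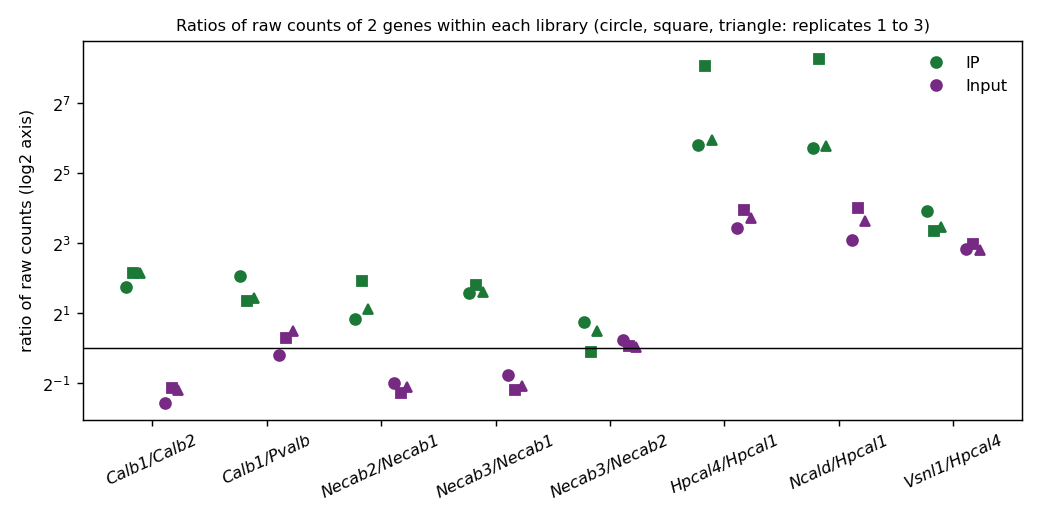
Ratios of raw counts of gene pairs (log2 vertical axis) within each IP library (left of each pair) and each Input library (right). Ratios of Calb1 to Calb2 lie between 3.35 and 4.44 in IP and between 0.341 and 0.453 in Input, and the Necab3 to Necab2 ratios of the groups overlap.

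The Necab genes parted in the same comparison. Necab1 (chromosome 4, 14952245 to 15149794, minus strand) had 52.1, 35.5 and 44.1 CPM in IP replicates 1 to 3, against 209.8, 277 and 272 CPM in Input replicates 1 to 3. All IP libraries were far below all Input libraries. It was 5.76-fold lower in IP (log2 fold change -2.53, SE 0.16, edgeR adjusted p = 5.73e-06), the furthest from 0 among the 10 genes, with log2 ratios of -2.01, -2.96 and -2.62 within replicate numbers.

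Necab2 (chromosome 8, 119446719 to 119472640, plus strand), whose product binds adenosine and metabotropic glutamate receptors, had 92.8, 135 and 95.3 CPM in IP replicates 1 to 3 and 105, 116 and 128 CPM in Input replicates 1 to 3. IP replicate 2 exceeded every Input library while the other IP libraries lay below them. The log2 fold change was -0.11 (95% interval -0.45 to 0.24, edgeR adjusted p = 0.596) and varied with the IP library left out. Without IP replicate 2 it was -0.30 (edgeR adjusted p = 0.0403). It was 0.0 without IP replicate 1 and -0.01 without IP replicate 3 (edgeR adjusted p = 0.993 and 0.968). Necab3 (chromosome 2, 154544399 to 154558890, minus strand), whose product binds an adaptor of the amyloid precursor protein, had 156, 125 and 133 CPM in IP and 123, 121 and 130.2 CPM in Input. Its log2 fold change was 0.15 (95% interval -0.08 to 0.38, edgeR adjusted p = 0.262).

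Relative to Necab1, the other family members changed place. Necab2 counts were 1.78, 3.81 and 2.16 times Necab1 counts in IP replicates 1 to 3, and 0.500, 0.417 and 0.470 times in Input. Necab3 counts were 3.0, 3.52 and 3.02 times Necab1 counts in IP and 0.587, 0.437 and 0.479 times in Input. The mean log2 ratios differed between groups by 2.41 and 2.67, each with an exact permutation p of 0.1. The ratio of Necab3 to Necab2 overlapped between groups (difference 0.27 on the log2 scale, exact permutation p = 0.4). The summed level of the Necab genes was 273 to 301 CPM in IP and 438 to 529.8 CPM in Input.

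Vsnl1 (chromosome 12, 11325242 to 11436613, minus strand), a visinin-like sensor, supplied most counts of the 10 genes, with 80.1, 72.2 and 76.1% of them in IP replicates 1 to 3 and 60.4, 59.5 and 57.8% in Input replicates 1 to 3. Its level was 4551, 2959 and 3348 CPM in IP and 1809.5, 1795 and 1740.2 CPM in Input. Input libraries lay close together, while IP replicate 1 stood above the other IP libraries. The log2 fold change was 1.02 (SE 0.14, edgeR adjusted p = 0.000342), and it was 0.83 without IP replicate 1.

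Ncald (chromosome 15, 37366175 to 37792570, minus strand), the neurocalcin delta gene, had 288, 339 and 276 CPM in IP, against 202, 235 and 235 CPM in Input. Hpcal4 (chromosome 4, 123183227 to 123194701, plus strand), a hippocalcin-like sensor, had 303, 294 and 306 CPM in IP, against 257, 227 and 251 CPM in Input. The groups did not overlap for either gene, but the changes were small: 0.43 for Ncald (SE 0.10, edgeR adjusted p = 0.00784) and 0.30 for Hpcal4 (SE 0.08, edgeR adjusted p = 0.0117). Both lost their calls under upper-quartile scaling (edgeR adjusted p = 0.0693 for Ncald and 0.240 for Hpcal4) and under library totals (0.224 and 0.577). Hpcal4 also lost its call without Input replicate 2 (adjusted p = 0.0605), without replicate number 2 (0.0506), without replicate number 3 (0.10) and under a filter on a mean of 5 CPM, where its log2 fold change was 0.14 (0.178).

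Hpcal1 (chromosome 12, 17690856 to 17791933, plus strand) was the sensor that fell. It had 5.48, 1.11 and 5.04 CPM in IP replicates 1 to 3, from 274, 51 and 214 counts, against 23.9, 14.7 and 18.9 CPM in Input replicates 1 to 3. IP replicate 2 was the lowest library by far, and every IP library was below every Input library. It was 4.94-fold lower in IP (log2 fold change -2.30, SE 0.49, edgeR adjusted p = 0.00428), and without IP replicate 2 the log2 fold change was -1.86. Hpcal4 counts were 55.3, 265 and 60.8 times Hpcal1 counts in IP replicates 1 to 3 and 10.7, 15.4 and 13.2 times in Input.

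**Figure D3:**
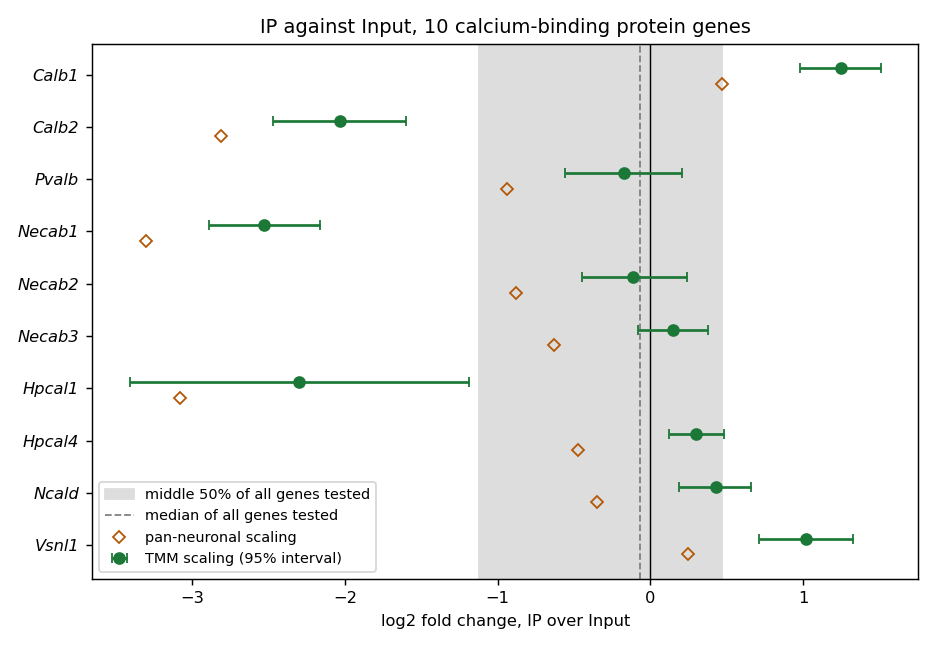
Log2 fold changes of IP over Input (horizontal axis) for the 10 genes under TMM scaling with 95% intervals (circles) and under scaling to pan-neuronal genes (diamonds), with the middle 50% of all genes tested in grey (-1.12 to 0.47). Calb1, the highest circle at 1.25, is at 0.47 under pan-neuronal scaling, where Hpcal4, Ncald and Necab3 lie below 0.

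Because neuronal genes as a whole were higher in IP, the comparison was also made with libraries scaled to the median ratio of the 20 pan-neuronal genes, which shifted the median of all genes by -0.77 on the log2 scale. On that scale Calb1 alone of the 10 was called higher, at a log2 fold change of 0.47 (SE 0.12, edgeR adjusted p = 0.00780). Vsnl1 had 0.25 (adjusted p = 0.133) and was not called. The other 8 were called lower, from -0.35 for Ncald (adjusted p = 0.0244) and -0.47 for Hpcal4 (adjusted p = 0.000795) through -0.63 for Necab3, -0.88 for Necab2 and -0.94 for Pvalb (adjusted p = 0.00112) to -2.81 for Calb2, -3.08 for Hpcal1 and -3.30 for Necab1. In the same fit 670 of all 16898 genes tested were called higher and 9685 lower.

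Other cell types moved beside the genes that fell. Of 12 markers of habenula neurons tested, 10 were lower in IP. Their summed level was 192, 155 and 153 CPM in IP replicates 1 to 3 and 212, 281 and 343 CPM in Input replicates 1 to 3. Most of the IP sum was Nwd2, which had 122 ± 8.71 CPM in IP and 117 ± 36.9 CPM in Input, and no habenula marker was at 0 in all IP libraries. Inhibitory markers had the values given beside Pvalb, and glial markers those given with the libraries. Calb2 and Hpcal1 were highest in Input replicate 1, where the habenula sum was lowest of its group and the inhibitory sum highest, while Necab1 was lowest there. The part of these cells in the lower levels of Calb2, Necab1 and Hpcal1 was not tested. Cortical and hippocampal markers split, with 4 of 11 tested higher and 4 lower.

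Levels of different genes were compared as CPM per kilobase of merged exons in the GENCODE annotation, which may differ from the annotation used for counting. In IP the order was Vsnl1 (1850.4 ± 424), Hpcal4 (56.4 ± 1.17), Necab3 (54.2 ± 6.32), Necab2 (51.4 ± 11.3), Pvalb (42.3 ± 7.06), Ncald (35.1 ± 3.90), Calb1 (27.8 ± 3.67), Calb2 (19.5 ± 5.88), Necab1 (8.38 ± 1.59) and Hpcal1 (2.29 ± 1.42; SD, n = 3 each). Library ranges of neighbours overlapped from Hpcal4 through Ncald and between Calb1 and Calb2. In Input, Vsnl1 (911 ± 18.7) was followed by Calb2 (79.9 ± 7.83), and Necab1 (48.3 ± 7.15) lay within a run of overlapping neighbours from Necab2 to Hpcal4. Calb1 (11.7 ± 0.744) and Hpcal1 (11.3 ± 2.72) came last, with overlapping ranges. With the longest transcript as length, Ncald took the second place in IP (80.6 ± 8.96), and the lowest 4 genes in IP kept their order.

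**Figure D4:**
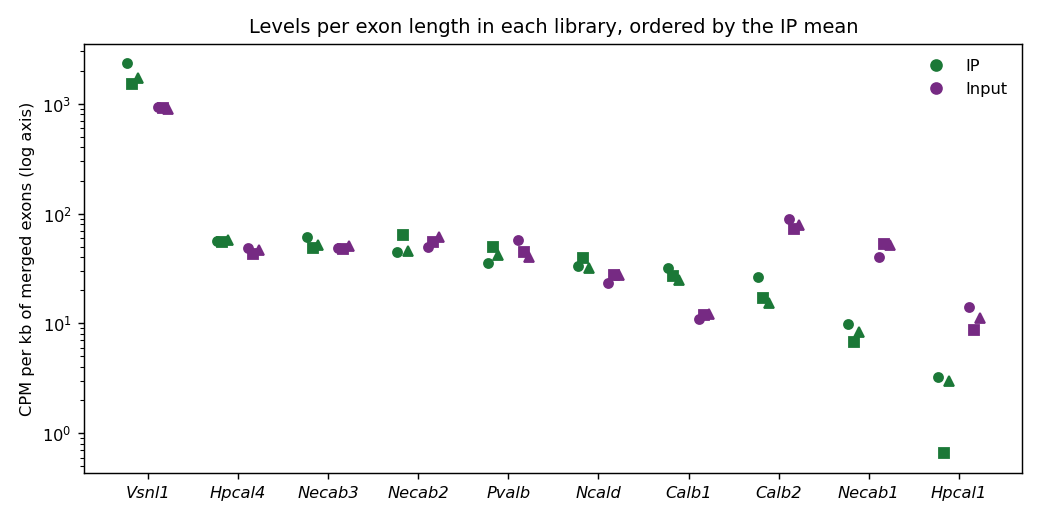
CPM per kilobase of merged exons (log vertical axis) for the 10 genes in each IP library (left) and Input library (right), ordered by the IP mean. Vsnl1 stands more than an order of magnitude above the rest, and Calb2 ranks 8 in IP and 2 in Input.

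Among 10788 genes averaging 5 CPM or more, those whose profile over the 6 libraries lay closest to a member were found by the root mean square difference of log2 CPM centred on each gene's mean. For Calb1 they were Ssu72 (0.042) and 1500011K16Rik (0.068). For Calb2 they were Cpne3 (0.102) and Cdc42ep2 (0.116), and for Pvalb Prkag1 (0.077) and Tmem43 (0.079). These distances describe 6 libraries in which the IP and Input contrast dominates.

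The remaining EF-hand genes give the setting of these 10. Of 56 other EF-hand genes listed, 44 were tested, and 19 (43.2%) were higher, 15 (34.1%) lower and 10 not called in IP. Among all genes tested, 23.3% were called higher and 24.3% lower. The median log2 fold change of the 44 was -0.21. Under pan-neuronal scaling 7 of the 44 were higher and 19 lower, beside 670 higher and 9685 lower among all 16898 genes tested. On that scale Ncs1 (-0.12), Chp1 (-0.02) and Sdf4 (-0.19), called higher before, lay below 0. Among the other neuronal calcium sensors 4 of 7 tested rose and 1 fell. The sensor Hpca, hippocalcin, whose coding sequence is 86.1% identical to that of Hpcal1, had 311 ± 8.10 CPM in IP and 154 ± 23.4 CPM in Input, a log2 fold change of 1.02 (SE 0.11), opposite in sign to Hpcal1 (0.25 under pan-neuronal scaling, edgeR adjusted p = 0.0580). Of the Kcnip genes, whose products bind Kv4 potassium channels, Kcnip2 (1.45, SE 0.24) and Kcnip4 (1.04, SE 0.12) rose, and under pan-neuronal scaling Kcnip4 lost its call (0.27, edgeR adjusted p = 0.0781). Kcnip3, also known as the transcriptional repressor DREAM, fell to 7.78, 17.2 and 22.9 CPM in IP replicates 1 to 3, against 127, 162 and 152 CPM in Input (log2 fold change -3.21, SE 0.33, edgeR adjusted p = 6.70e-05).

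Of 8 calmodulins and calmodulin-like sensors tested, 3 were called higher and 1 lower. Calm2 (log2 fold change 1.51, SE 0.09) and Calm3 (1.13, SE 0.10), which encode calmodulin, the general calcium sensor of cells, rose. Scaled to pan-neuronal genes, Calm2 (0.73) and Calm3 (0.36) were again called higher. The gene called lower was Calml4, with 0.26, 0.327 and 0.212 CPM in IP replicates 1 to 3, against 0.94, 4.7 and 4.06 CPM in Input replicates 1 to 3 (log2 fold change -3.59, SE 0.73). Choroid plexus and ependymal marker sums were likewise lowest in replicate 1 of Input (33.8 CPM, against 533 and 596 CPM in Input replicates 2 and 3). In IP the sum was also lowest in replicate 1 (5.78 CPM, against 49.6 and 44.6 CPM), but Calml4 was lowest in replicate 3. The part of these cells in the Calml4 value was not tested. Of 13 other cytosolic EF-hand genes 8 rose, led by Efhd2 (1.21, SE 0.11) and the penta-EF-hand gene Pef1 (1.06, SE 0.17). Under pan-neuronal scaling Efhd2 (0.44) was the only gene of these 8 still called higher, and Pef1 had 0.29 (edgeR adjusted p = 0.164). Efhd1, whose product lies at mitochondria, had 13.4 ± 2.26 CPM in IP and 62.9 ± 2.25 CPM in Input (-2.23, SE 0.15), and Gca, the grancalcin gene, also fell (-1.51, SE 0.14).

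S100 genes, many of them glial, fell in 6 of 9 tested cases and rose in 1, with a median log2 fold change of -2.90. S100a16 (-3.11, SE 0.18) and S100a1 (-2.90, SE 0.62) fell furthest among those averaging 5 CPM or more. S100b, an astrocyte marker, had 35.5 ± 6.40 CPM in IP and 111 ± 4.6 CPM in Input, beside the astrocyte sums given above, whose part was not tested. S100a10, whose product has lost calcium binding and carries membrane proteins to the surface, rose (1.43, SE 0.24). In the secretory pathway Rcn2 (1.43, SE 0.08) and Nucb2 (1.30, SE 0.13) rose, and Rcn1 (-1.13, SE 0.23) and Calu (-0.72, SE 0.20) fell, among 3 higher and 3 lower of 7.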

How the data were processed

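RNA-seq was done on 3 IP and 3 Input libraries of 1 mouse line. The authors deposited raw counts, 1 value a gene and library. STAR 2.0.0e, the mouse build mm10 and HTSeq are named in the submitters' processing notes; the settings of HTSeq are not given in the sources used here. Lines tied to no gene were left out of library sizes: as shares of all lines in IP and Input replicates 1 to 3, not uniquely aligned reads made up 49.7, 43.2 and 44.8% against 34.0, 33.1 and 32.7%.

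The test used edgeR 4.0.16 under R 4.3.3 (filterByExpr with a minimum count of 10, TMM, robust quasi-likelihood F-test, Benjamini-Hochberg adjustment over all genes), checked on simulated counts. The spread of these counts was a common value for all genes, taken from the Input libraries alone. Changes were given to 200 genes, up or down at random. With so few genes changed, the check could not judge the choice of scaling. The test found 37.3% of simulated 1.5-fold changes, 83.6% of 2-fold and 100% of 4-fold changes, with 6 false among 151 calls. Standard errors were derived from the F statistic, and intervals from its degrees of freedom. DESeq2 1.42.0 and limma 3.58.1 served as alternatives, with other scalings, filters, a replicate block and leave-outs. Replicates differed by more than sampling noise (chi-square per degree of freedom 42.1 to 134 between IP libraries and 11.8 to 20.8 between Input libraries). Positions, exon lengths and sequences came from GENCODE M21, and all 10 symbols matched. The members and lists were chosen with earlier results of these data known. Named beyond the 10 were, per EF-hand list, the 2 largest called rises and falls at a mean of at least 5 CPM, the 2 most abundant markers of a list where a result touched them, and the 2 likest profiles. Hpca, Ncs1, Chp1, Sdf4, S100b and Calml4 were named after their values were seen. Not every gene counted in the lists is reported here.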

Additional observations from a re-analysis of the deposited data

How the results depend on the processing

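Calb1, Calb2, Necab1 and Hpcal1 kept their sign and their call under all 19 alternatives, with log2 fold changes of 0.47 to 1.38, -2.81 to -1.87, -3.30 to -2.31 and -3.08 to -1.86. Of the 10 genes, 2 were called higher under upper-quartile scaling, library totals and a test against a 1.5-fold change, and 1 higher and 8 lower under pan-neuronal scaling. Over all genes, 2458 were higher under library totals, 670 higher and 9685 lower under pan-neuronal scaling, and 1484 higher and 2700 lower in the 1.5-fold test. The share of calls that were higher in IP was 48.9% with TMM. It was 36.7% with upper-quartile scaling, 31.9% with library totals and 6.47% with pan-neuronal scaling, where the median of all genes moved by -0.18, -0.24 and -0.77. Of the other EF-hand genes, 7 were higher under pan-neuronal scaling. Signs turned for Necab3 (-0.03 under upper-quartile scaling, -0.09 under library totals, -0.63 under pan-neuronal scaling, -0.01 under the filter on a mean of 5 CPM), Hpcal4 (-0.47) and Ncald (-0.35) under pan-neuronal scaling. When libraries were left out, Pvalb ranged from -0.33 to 0.11 and Necab2 from -0.30 through 0 to 0.06. Members called higher numbered 3 to 4 and lower 3 to 4 when 1 library or replicate number was left out.

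Correlations between same-numbered IP and Input libraries were 0.06, 0.04 and 0.01, and those between differently numbered ones ran from -0.06 to 0.02. All were under the 0.1 taken as a sign of pairing. The labels give same-numbered libraries the same lane code. Choroid plexus and ependymal sums, and Ttr within them, were lowest in replicate 1 of both groups. Whether the numbers pair the samples is therefore uncertain. With the replicate number as a block, 4 of the 10 genes were higher and 3 lower, and 3793 genes were higher and 4038 lower in all. Among the 10 genes the lowest count was 51, for Hpcal1 in IP replicate 2. The causes of these changes were not tested.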
